A study of Homo sapiens with 6 samples.

Results

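The 54 genes described here carry out or mark the cell division cycle: 7 control entry into S phase, 18 copy DNA or supply its building blocks, and 29 act in the G2 phase and mitosis. They were listed by name, and each was read on the brightest of its probe sets, judged by the mean log2 signal of the 6 arrays. All 54 were on the array with 108 probe sets, of which 99 lay above the filter on dim probe sets, and all 54 were among the 12151 genes tested. The cells were HSC-3, an established line derived from squamous cell carcinoma of the tongue. The 3 arrays labelled TAT-2 carried RNA of HSC-3 cells made to overexpress trypsin-2, a serine protease, and the 3 labelled vector carried RNA of HSC-3 cells with a control vector. Both groups had grown for 48 h in the same medium with fetal calf serum and hydrocortisone, and were detached with trypsin before freezing. The labels do not say whether each line was 1 clone or a pool, or which promoter drove the introduced gene. They also do not say that the 3 arrays of a group came from separate cultures, so each p-value speaks only of the spread among these arrays, which may be technical.

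A dividing cell commits to DNA synthesis when cyclin D and cyclin E kinases inactivate the retinoblastoma protein and free E2F factors to switch on replication genes. Origins of replication are then loaded with the MCM helicase by CDC6 and CDT1, and the loaded helicase is activated by GINS and MCM10. Later, CDK1 with its cyclins drives entry into mitosis, where Aurora and Polo kinases build the spindle, the checkpoint proteins monitor it, and the anaphase-promoting complex ends it. In RNA of a whole culture, fewer cells in a phase and less RNA per cell cannot be told apart.

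PRSS2, the gene of trypsin-2, went against the labels in replicates 2 and 3, as far as its probe sets can tell. Its brighter probe set gave signals of 20.4, 13.8 and 14.6 in TAT-2 replicates 1, 2 and 3, compared to 19.6, 80.8 and 83.2 in vector replicates 1, 2 and 3. The dimmer one gave 19.9, 17.9 and 19.5 compared to 22.6, 38.0 and 54.5. On the TAT-2 arrays and on vector replicate 1 both probe sets lay near the filter, a signal of 15.2. Neither was called by limma (adjusted p = 0.467 and 0.56, and 0.0506 and 0.127 with the replicate number as a block), and the labels do not say whether they read the introduced sequence. Directions below therefore rest on the labels. All 6 epithelial markers with a probe set of their own were above the filter, with summed signals of 23061 to 24480 in TAT-2 and 20341 to 26765 in vector. With the block CDH1 (-0.44) and EPCAM (-0.45) fell and KRT19 (0.56) rose among them. Of 6 fibroblast markers 2 were above it (sums of 131 to 137 and 112 to 136), and of 4 leukocyte markers 2 (45.7 to 110.5 and 42.5 to 73.7). COL1A2, COL3A1 and PTPRC lay below it on every probe set. These sums use the brightest probe set of each marker. For COL1A1 that one was at 0.22 and not called, while a dimmer tested one was at -1.06 (adjusted p = 0.000881, limma with the block). The replicate 1 arrays stood apart from replicates 2 and 3 in both groups, and the free-text names of these arrays in the labels also differ in form from those of the other 4.

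Between the groups the cell cycle genes differed little. The log2 difference, TAT-2 minus vector, ran from -0.49 for GINS1 to 0.38 for CDK1 on the scale of log2(signal + 16), which is used for every difference given here. None of the 54 exceeded 0.5 in size, against 3.93% of all genes tested. The median size of the difference was near that of genes in general, at 0.119 over the members and 0.126 over all genes. The median was -0.03 over the members and -0.0025 over all genes, with 31 members lower and 23 higher. With group as the only term, limma called 0 members at an adjusted p under 0.05 (smallest adjusted p = 0.192, GINS1), against 0.0576% of all genes, and 6 members had an unadjusted p under 0.05, against 9.38% of all genes. With the replicate number as a block, limma called 7 members (13.0%), against 6.96% of all genes: GINS1, CDC25B, AURKA, CCND1, AURKB and PCNA fell on the arrays labelled TAT-2 and CDK1 rose. The same 7 were called with replicate 1 against the others as a batch factor. When limma's variance prior was fitted with no intensity trend, the block called 0 of 12151 genes. The block called only GINS1 and CDC25B with both replicate 2 arrays left out, and only GINS1, CDC25B and AURKA with array medians centred or with no filter. For these and the other altered blocked settings named below for single genes, the share of all genes called is not given. A gain or loss of a call there may follow a change over all genes.

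**Figure D1:**
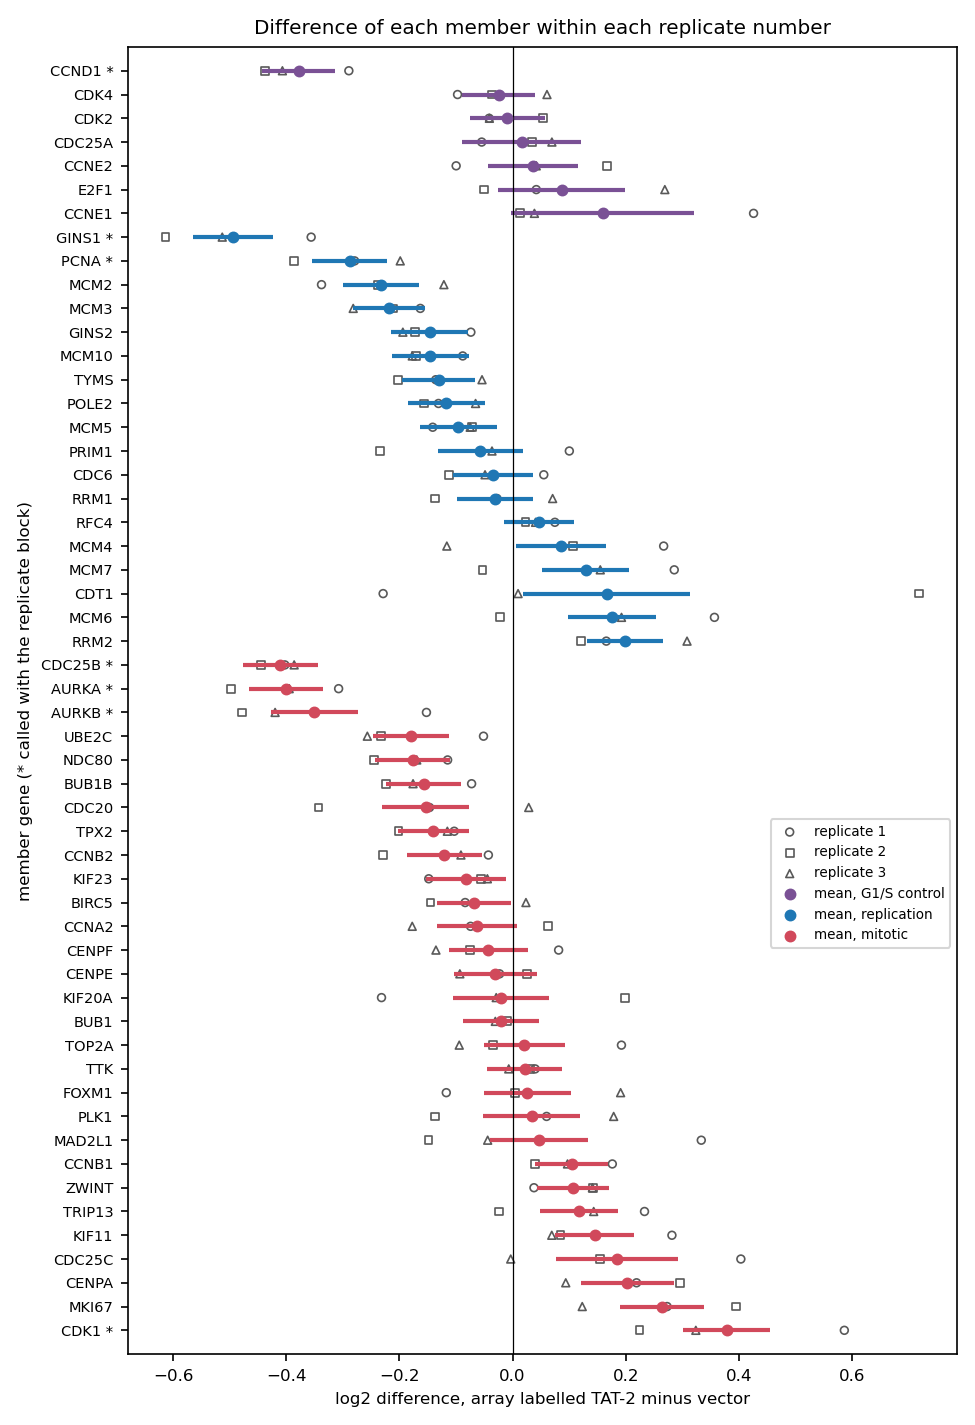
Each row is 1 of the 54 members, and the x axis is the log2 difference between the array labelled TAT-2 and the vector array of the same replicate number. Open symbols are replicates 1, 2 and 3, filled points are their mean, bars are the mean ± SE of the blocked limma fit, and stars mark the 7 called members, of which GINS1 at -0.49 is the lowest and CDK1 at 0.38 the highest.

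The 3 replicate numbers were of the same sign in 29 members, 20 of them lower and 9 higher. Over all genes tested 21.1% were lower and 21.4% higher in each of the 3 numbers. The 2 groups did not overlap in 11 members, 8 lower and 3 higher, against 7.83% lower and 7.87% higher of all genes. The error of a member's difference had a median SE of 0.12 with group alone and 0.07 with the block, so that a difference of under 0.1 lay within 2 SE in either fit. A further probe set lay above the filter for 30 members, and in 10 of these at least 1 such probe set had the opposite sign. The 10 were CDC25A, CDC6, MCM5, MCM6, GINS2, CCNB2, TOP2A, BIRC5, BUB1 and MAD2L1, none of them a called member.

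Of the 7 genes of G1 and S phase entry, 1 fell with the block, where 3.46% of all genes did, and 6 were not called in either fit. CCND1, which encodes cyclin D1, gave signals of 2532, 1501 and 1680 in TAT-2 replicates 1, 2 and 3 and 3097, 2038 and 2233 in vector replicates 1, 2 and 3. The groups overlapped because both replicate 1 arrays were the highest of their group, while within each number the TAT-2 array was the lower one. CCND1 thus fell 1.30-fold (log2 -0.38 ± 0.06, SE, limma with the block, adjusted p = 0.00685), and its SE without the block was 0.21 (adjusted p = 0.767). A further probe set of CCND1 differed by -0.57 and was also called with the block. The differences were -0.02 for CDK4, the kinase partner of cyclin D1, and -0.01 for CDK2, the partner of cyclin E. E2F1, a transcription factor of replication genes, gave 104, 97.9 and 140 compared to 101, 102 and 113, a difference of 0.09 ± 0.15 (SE). CDC25A, a phosphatase that activates CDK2, gave 146, 94.5 and 95.5 compared to 152, 92.0 and 90.3, so that the replicate numbers differed far more than the groups. The cyclin E genes CCNE1 and CCNE2 were at 0.16 and 0.04, and the median of the 7 was 0.02. CCNE1 rested on 1 pair: its differences were 0.43, 0.01 and 0.04 in replicates 1, 2 and 3.

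Of the 18 replication genes 12 were lower and 6 higher, with a median of -0.08, and 2 fell with the block (11.1%, against 3.46% of all genes called lower). GINS1, a subunit of the GINS complex that activates the MCM helicase, had signals of 717, 735 and 772 in the 3 TAT-2 replicates and 922, 1133 and 1109 in the vector replicates. No TAT-2 array reached any vector array, and the fall was 1.41-fold (log2 -0.49 ± 0.07, SE, limma with the block, adjusted p = 0.00299). GINS2, another subunit, was at -0.15 and MCM10, which works beside it, at -0.15, neither called. PCNA, the sliding clamp of the replicative polymerases, had signals of 2342, 2536 and 2746 in TAT-2 and 2846, 3319 and 3153 in vector. The groups did not overlap either, and PCNA fell 1.22-fold (log2 -0.29 ± 0.07, SE, limma with the block, adjusted p = 0.0294). PCNA was not called with both replicate 1 arrays left out.

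Of the 6 subunits of the MCM helicase, MCM2, MCM3 and MCM5 were lower and MCM4, MCM6 and MCM7 higher. However, MCM4, MCM6 and MCM7 each had 1 replicate pair of the opposite sign (-0.12, -0.02 and -0.05). A further probe set of MCM5 and of MCM6 also had the opposite sign. MCM2 gave 881, 1073 and 1091 compared to 1118, 1269 and 1189, with no overlap, a difference of -0.23 ± 0.07 (SE with the block, adjusted p = 0.0758 in limma). MCM3 was at -0.22 (adjusted p = 0.0751 with the block), and MCM6 at 0.18. The block called both MCM2 and MCM3 lower under quantile normalization or a stricter filter, and MCM2 with both replicate 3 arrays left out. Of the licensing factors that load the helicase, CDC6 was at -0.04 and CDT1 at 0.17, where CDT1 rested on 1 pair: its differences were -0.23, 0.72 and 0.01 in replicates 1, 2 and 3. The clamp loader subunit RFC4, the polymerase subunit POLE2 and the primase subunit PRIM1 lay between -0.12 and 0.05. Among the genes of nucleotide supply, RRM2, the regulated subunit of ribonucleotide reductase, had signals of 3296, 3400 and 3838 in TAT-2 and 2936, 3125 and 3096 in vector. All 3 TAT-2 arrays were above all 3 vector arrays, yet RRM2 was not called at 0.20 ± 0.07 (SE, limma with the block, adjusted p = 0.125). Under quantile normalization the block called RRM2 higher. Its partner RRM1 was at -0.03 and TYMS, thymidylate synthase, at -0.13.

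Of the 29 mitotic genes 16 were lower and 13 higher, with a median of -0.02, and with the block 3 fell and 1 rose (13.8% called, against 6.96% of all genes). CDK1, the kinase that drives cells into mitosis, gave 2909, 2767 and 2868 on the arrays labelled TAT-2 and 1932, 2366 and 2288 on the vector arrays. The lowest TAT-2 array lay above the highest vector array, a 1.30-fold rise (log2 0.38 ± 0.08, SE, limma with the block, adjusted p = 0.0164). The 3 other tested probe sets of CDK1 had the same sign with smaller differences, 0.09 to 0.19, and none was called. CDK1 was not called with its probe sets averaged or with both replicate 1 arrays left out. Of its cyclin partners, CCNB1, cyclin B1, was at 0.10, CCNB2 at -0.12 and CCNA2, cyclin A2, at -0.06, none of them called.

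Both Aurora kinases fell with the block. AURKA, which matures the centrosomes and spindle poles, gave 1043, 1036 and 1199 in TAT-2 and 1294, 1470 and 1582 in vector. The groups did not overlap and the fall was 1.32-fold (log2 -0.40 ± 0.07, SE, limma with the block, adjusted p = 0.00575), with a further probe set called at -0.39. With probe sets ending in _x_at or _s_at left out, AURKA was read on a dimmer probe set (-0.20) and was not called. AURKB, the kinase of the chromosomal passenger complex, gave 815, 569 and 603 compared to 908, 799 and 812. TAT-2 replicate 1 lay above vector replicates 2 and 3, so the groups overlapped, and the fall was 1.27-fold (log2 -0.35 ± 0.08, SE, limma with the block, adjusted p = 0.0236). The other probe set of AURKB was called as well, at -0.53. TPX2, the activator of AURKA, was at -0.14, and BIRC5, survivin, a passenger partner of AURKB, at -0.07. PLK1, the Polo kinase, was at 0.03.

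CDC25B, the phosphatase that starts the activation of CDK1, fell by nearly the same amount in each pair. Its signals were 667, 427 and 418 in TAT-2 and 887, 586 and 551 in vector, and its differences were -0.40, -0.44 and -0.39 in replicates 1, 2 and 3. The groups overlapped only through the high replicate 1 arrays, and the fall was 1.33-fold (log2 -0.41 ± 0.07, SE, limma with the block, adjusted p = 0.0053). Without the block its SE was 0.23. CDC25C, a later phosphatase of CDK1, was at 0.18 and FOXM1, a transcription factor of mitotic genes, at 0.03, neither called.

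**Figure D2:**
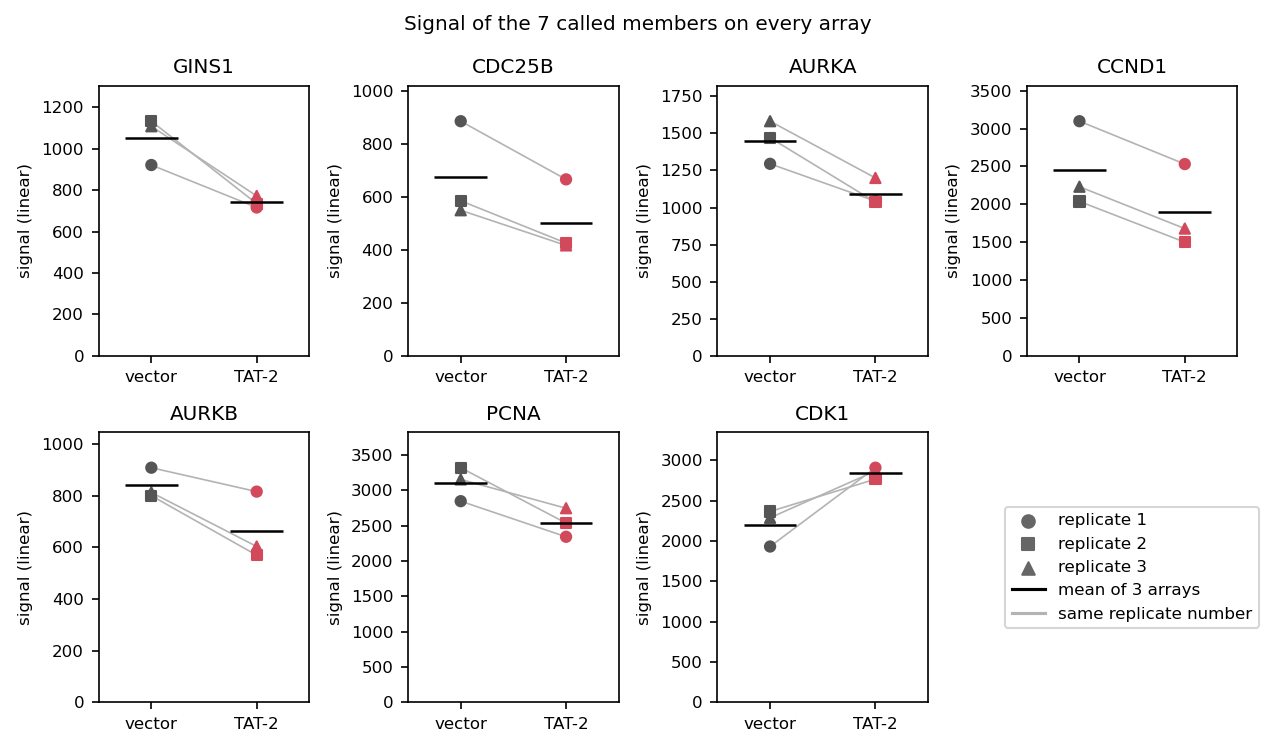
Linear signal (y axis, from 0) of the 7 members called with the replicate block on each of the 3 vector and 3 TAT-2 arrays, with grey lines joining arrays of the same replicate number and bars at the group means. The 6 genes that fell are lower on the TAT-2 array within each number, and for CDC25B, CCND1 and AURKB both replicate 1 arrays lie above the others of their group.

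The proliferation marker MKI67 had signals of 705, 656 and 569 in TAT-2 and 581, 495 and 521 in vector. It was higher in each number but not called, at 0.26 ± 0.07 (SE, limma with the block, adjusted p = 0.066). The block called MKI67 higher under the stricter filter or with both replicate 3 arrays left out. TOP2A, the topoisomerase that untangles chromosomes, was at 0.02. The 5 spindle checkpoint genes lay between -0.16 and 0.12. BUB1B, a checkpoint kinase, was the lowest of them, with 665, 654 and 669 compared to 700, 767 and 758 and no overlap, and MAD2L1, an inhibitor of CDC20, was at 0.05. The 5 kinetochore genes lay between -0.18 for NDC80, which binds microtubules, and 0.20 for CENPA, the histone of centromeres. ZWINT, a kinetochore linker, was at 0.11 with no overlap. The mitotic kinesin KIF11, which pushes spindle poles apart, was at 0.15, and KIF20A and KIF23, which act in cytokinesis, at -0.02 and -0.08. CDC20, which activates the anaphase-promoting complex, was at -0.15 and its ubiquitin-conjugating enzyme UBE2C at -0.18. None of these was called by either fit.

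Among 46 other tested replication genes the block called 4 higher and 3 lower (15.2%), against the same 6.96%. With group alone limma called 0 of the 46, and 8 had an unadjusted p under 0.05, against 9.38% of all genes. ORC3, a subunit of the origin recognition complex, rose most, from 262 ± 39.6 to 464 ± 71.2 (SD, n = 3 each), a log2 difference of 0.78 (adjusted p = 0.000364, limma with the block). FEN1, which trims Okazaki fragments, and CDC45, which joins GINS on the helicase, rose by 0.55 and 0.54, and GMNN, the inhibitor of CDT1, by 0.29. PRIM2, the large primase subunit, fell by 0.42 and CDC7, a kinase of origin firing, fell by 0.31 on the log2 scale. UHRF1, which helps maintain DNA methylation behind the fork, fell by 0.26 and is outside the rule for named genes, chosen after its value was seen. The list's median was -0.09. CDC45 thus went the opposite way from GINS1, with which it forms the active helicase. Of 63 other mitotic genes only CEP55, a cytokinesis protein, was called with the block, at 0.30 (1.59%, against 6.96% of all genes). With group alone limma called 0 of the 63, and 2 had an unadjusted p under 0.05. Of 35 tested regulators, CDKN2B, the p15 inhibitor of CDK4, rose (0.71) from 85.3 ± 21.6 to 149 ± 34.9 (SD, n = 3 each). CCND2, cyclin D2, rose (0.27), and MYBL2, a transcription factor of late cell cycle genes, fell (-0.48). The block called only these 3 regulators (8.57%, against 6.96% of all genes). With group alone limma called 0 regulators, and 2 had an unadjusted p under 0.05.

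Promoters of 43 of the 54 members were found in the RefSeq table of build GRCh38.p14, each from 250 bases before to 50 after the gene's most upstream start. They were searched on both strands for 3 elements of cell cycle promoters, none of which is part of another. The cell cycle homology region of late genes was TTTGAA, the CCAAT box was CCAAT, and the E2F site was TTTCCCGC, TTTCGCGC, TTTGCCGC or TTTGGCGC. An E2F match lay in 11 of 16 replication promoters (68.8%) and 2 of 23 mitotic ones (8.70%), and in 3.34% of all 27305 promoters in the table. TTTGAA lay in 14 of 23 mitotic promoters (60.9%) and 1 of 16 replication ones (6.25%), against 15.5% of all. CCAAT lay in 68.8% of replication and 73.9% of mitotic promoters, against 35.7% of all. The 5 called members in the table are shown to let their promoters be compared, as the 250 bases before the start, 5′ to 3′ on the gene's strand, with matches in capitals.
GINS1 promoter, chr20:25407423-25407672, plus strand: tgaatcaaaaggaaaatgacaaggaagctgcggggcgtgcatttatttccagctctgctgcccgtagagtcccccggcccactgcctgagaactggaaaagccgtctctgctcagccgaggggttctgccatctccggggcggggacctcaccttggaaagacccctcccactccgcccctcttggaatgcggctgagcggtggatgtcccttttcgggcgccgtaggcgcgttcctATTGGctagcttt
PCNA promoter, chr20:5126623-5126872, minus strand: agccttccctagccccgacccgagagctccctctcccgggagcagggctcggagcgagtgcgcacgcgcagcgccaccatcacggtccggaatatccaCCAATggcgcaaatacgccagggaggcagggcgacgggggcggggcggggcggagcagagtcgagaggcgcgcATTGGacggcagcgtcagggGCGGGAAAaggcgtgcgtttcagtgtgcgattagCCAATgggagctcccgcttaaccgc
CDC25B promoter, chr20:3786701-3786950, plus strand: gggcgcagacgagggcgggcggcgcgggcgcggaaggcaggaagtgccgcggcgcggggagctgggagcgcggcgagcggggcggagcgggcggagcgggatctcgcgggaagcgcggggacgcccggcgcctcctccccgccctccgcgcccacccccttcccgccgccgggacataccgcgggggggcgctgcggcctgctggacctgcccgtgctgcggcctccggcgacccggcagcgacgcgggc
AURKB promoter, chr17:8210250-8210499, minus strand: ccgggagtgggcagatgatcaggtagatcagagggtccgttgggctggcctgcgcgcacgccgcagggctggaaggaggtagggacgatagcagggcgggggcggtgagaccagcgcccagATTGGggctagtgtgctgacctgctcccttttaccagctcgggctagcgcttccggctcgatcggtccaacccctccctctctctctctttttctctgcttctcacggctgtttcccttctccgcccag
CDK1 promoter, chr10:60778081-60778330, plus strand: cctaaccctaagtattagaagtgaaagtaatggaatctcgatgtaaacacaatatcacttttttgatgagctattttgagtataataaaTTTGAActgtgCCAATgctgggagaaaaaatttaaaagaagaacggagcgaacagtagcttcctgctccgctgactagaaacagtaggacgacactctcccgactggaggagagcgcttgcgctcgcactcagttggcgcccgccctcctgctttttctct
CDK1, which rose, carries both TTTGAA and a CCAAT box in this stretch. AURKB and GINS1, which fell, carry a CCAAT box in it, PCNA carries 3 of them and an E2F site, and CDC25B carries none of the 3 elements. In the 50 bases after the start, not shown, GINS1 and CDK1 also hold an E2F match. Other starts of these genes were not searched, so an element absent here may lie at another start.

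Of the 7 called members, 5 lie on a pair of chromosomes. GINS1, PCNA, CDC25B and AURKA are on chromosome 20, with TPX2, E2F1 and UBE2C, and CDK1 is on chromosome 10, with ZWINT, KIF11, MKI67 and MCM10. This was looked at after the called members were known. On chromosome 20, the median difference of 351 tested genes was -0.21, the lowest of 23 chromosomes, with medians of -0.19, -0.21 and -0.25 in replicates 1, 2 and 3. There 292 genes were lower and 78 fell with the block, or 22.2%, against 3.46% over all chromosomes. Without the 7 members the median was also -0.21. On chromosome 10 the median of 488 genes was 0.14, the highest of the 23, and 69 rose with the block, or 14.1%, against 3.5% over all. The medians there were 0.16, 0.18 and 0.10 in the 3 replicate numbers.

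**Figure D3:**
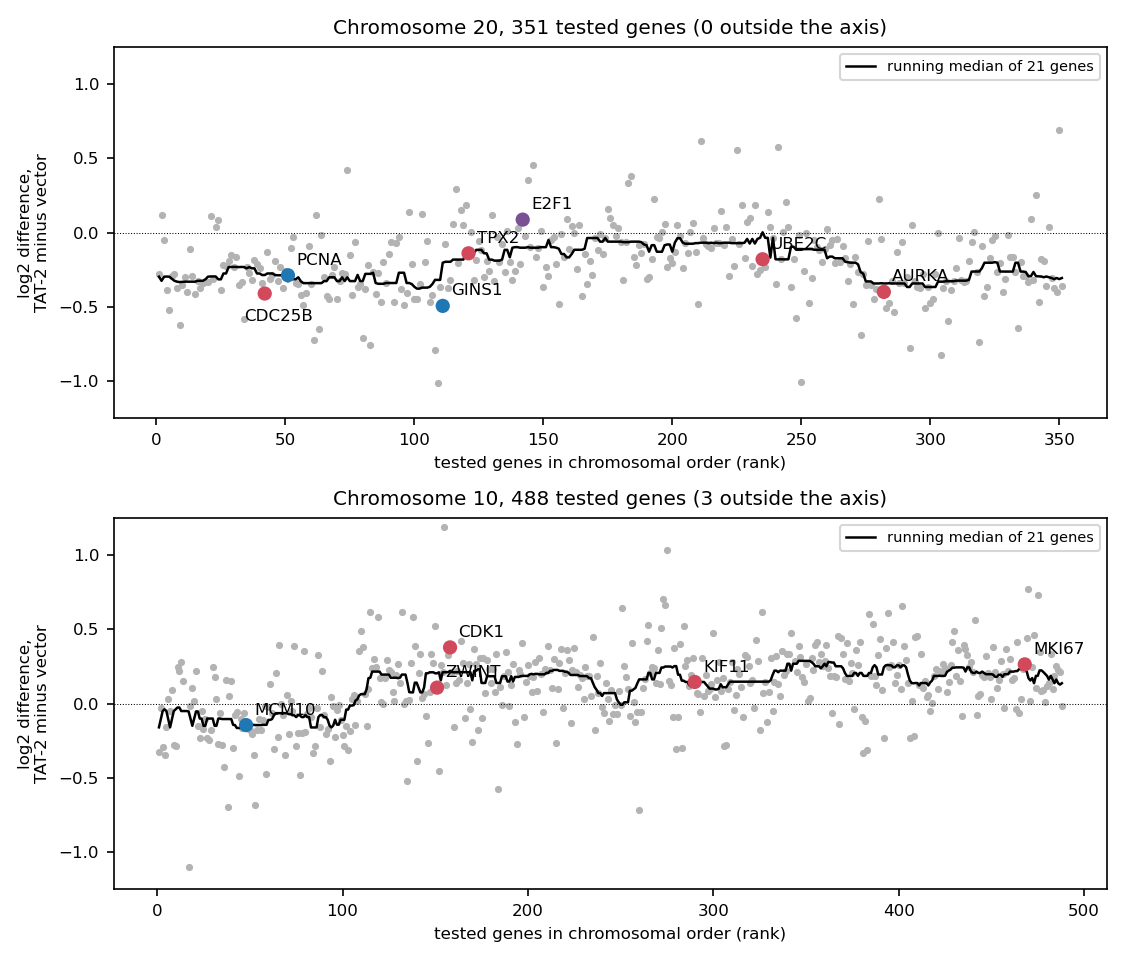
The y axis is the log2 difference, TAT-2 minus vector, of each tested gene of chromosomes 20 and 10 (grey), and the x axis their order along the chromosome; the black line is the running median of 21 genes and larger points are members (purple G1/S control, blue replication, red mitotic). On chromosome 20 the medians of the 20 neighbours are -0.28 for CDC25B, -0.33 for PCNA, -0.20 for GINS1, -0.34 for AURKA and 0.02 for UBE2C, and the line is low in stretches that hold no member too; on chromosome 10 it is below 0 around MCM10 and above 0 around CDK1, ZWINT, KIF11 and MKI67.

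Each member was therefore set beside the 10 nearest tested genes on either side. Around CDC25B 20 of 20 neighbours were lower, with a median of -0.28, and around PCNA 20 of 20, with a median of -0.33; each of this pair is among the neighbours of the other. Around AURKA 19 of 20 were lower (median -0.34), and around GINS1 14 of 20 (median -0.20). Less the median of its neighbours, PCNA was at 0.05, AURKA at -0.06, CDC25B at -0.13 and GINS1 at -0.29. Around CDK1 17 of 20 neighbours were higher, with a median of 0.22, which leaves CDK1 at 0.16. AURKB, on chromosome 17, had 15 of 20 lower neighbours (median -0.22), which leaves -0.13. CCND1, on chromosome 11, had 14 of 20 lower but a median of only -0.07, which leaves -0.31. GINS1 and CCND1 thus lay farthest below their surroundings among the 7.

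Of the 47 members not called, 29 (61.7%) lay within 0.1 of the median of their neighbours and 18 did not, against 43.7% within 0.1 over all genes. The share over all genes includes the called ones, so these shares are not of like sets. MKI67 at 0.26 had a neighbour median of 0.23, and KIF11 at 0.15 one of 0.12. MCM10 at -0.15, near the other end of chromosome 10, had one of -0.15, with 18 of 20 lower. MCM3, on chromosome 6, at -0.22 had one of -0.33, with 16 of 20 lower. TYMS and NDC80, both near an end of chromosome 18, at -0.13 and -0.18 had medians of -0.22 and -0.20, over 13 and 17 neighbours. E2F1 and UBE2C on chromosome 20 differed from theirs, with 0.09 against -0.13 and -0.18 against 0.02. Elsewhere MCM2 was at -0.23 against -0.03, MCM6 at 0.18 against -0.01, MCM7 at 0.13 against -0.03 and CDT1 at 0.17 against -0.05. RRM2 was at 0.20 against 0.03 and CDC6 at -0.04 against 0.11. Across the 54 members the difference and the neighbour median correlated with Pearson's r = 0.74 and Spearman's rho = 0.67, and across 12127 genes with 0.34 and 0.30. This is a description across genes, which are not independent replicates: all values come from the same 6 arrays, and close members share neighbours. The signs matched in 37 members (68.5%), against 59.1% of all genes. Members lie more often on chromosomes 20 and 10 (7 and 5 of 54) than all genes tested (351 and 488 of 12151). Neither comparison was made without these chromosomes, so a difference from all genes cannot be credited to the cell cycle genes as such. The other called pathway genes were mixed. CDC45, on chromosome 22, had a neighbour median of 0.30, CDKN2B one of 0.23, PRIM2 one of -0.22 and GMNN one of 0.19. CEP55, on chromosome 10, had one of 0.14, and MYBL2, on chromosome 20, one of -0.07. Those of ORC3, FEN1, CDC7, CCND2 and UHRF1 lay between -0.02 and 0.03.

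**Figure D4:**
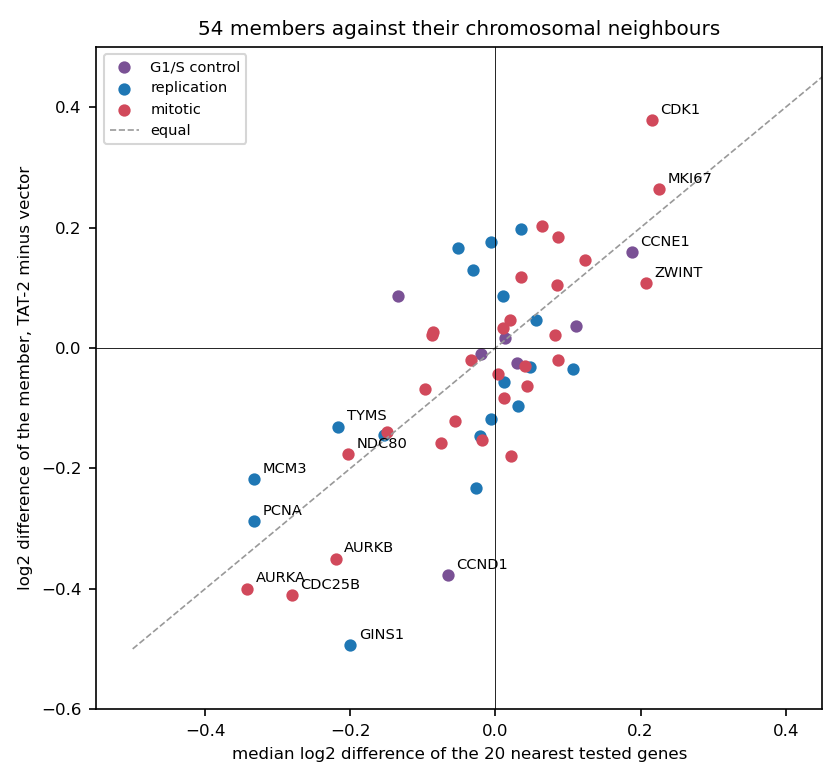
The x axis is the median log2 difference of the nearest tested genes of each member (20, fewer at a chromosome's end) and the y axis the member's own log2 difference, TAT-2 minus vector, for the 54 members in 3 colours by function. The dashed line marks equal values; AURKA (-0.40 against -0.34) and MKI67 (0.26 against 0.23) lie near it, and CCND1 (-0.38 against -0.07) and GINS1 (-0.49 against -0.20) below it.

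Outside chromosomes 10 and 20 the block called 2 of 42 members, AURKB and CCND1 (4.76%), against 6.04% of 11312 genes. The median of these 42 was -0.02.

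Several members differed more by replicate number than by group. On replicate 1 of both groups PLK1 had signals of 416 and 399, compared to 198, 241, 219 and 211 on the other 4 arrays, a log2 difference of 0.87, replicate 1 minus replicates 2 and 3. CENPA differed by 0.70, CDC25B by 0.63, CCND1 and CDC25A by 0.60 each and FOXM1 by 0.52 in the same direction. RFC4, at -0.50, and KIF20A, at -0.44, were the lowest on replicate 1. Differences beyond 0.5 were found for 6 members (11.1%) and for 12.4% of all genes. The median was 0.22 for G1/S control, -0.10 for replication and 0.01 for mitotic members, and 0.01 for all genes. The called members lay on both sides: AURKA (-0.16), GINS1 (-0.17), PCNA (-0.18) and CDK1 (-0.11) were lower on replicate 1, and CDC25B, CCND1 and AURKB (0.32) higher. Within replicates 2 and 3 alone, with group as the only term, limma called 196 genes. Among them were 2 members, GINS1 (-0.56, adjusted p = 0.0155) and AURKB (-0.45, adjusted p = 0.0401). With the block, limma called GINS1, CDC25B, AURKA, CCND1 and AURKB there. The share of all genes called in that blocked fit is not given, so these members cannot be set against genes in general.

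**Figure D5:**
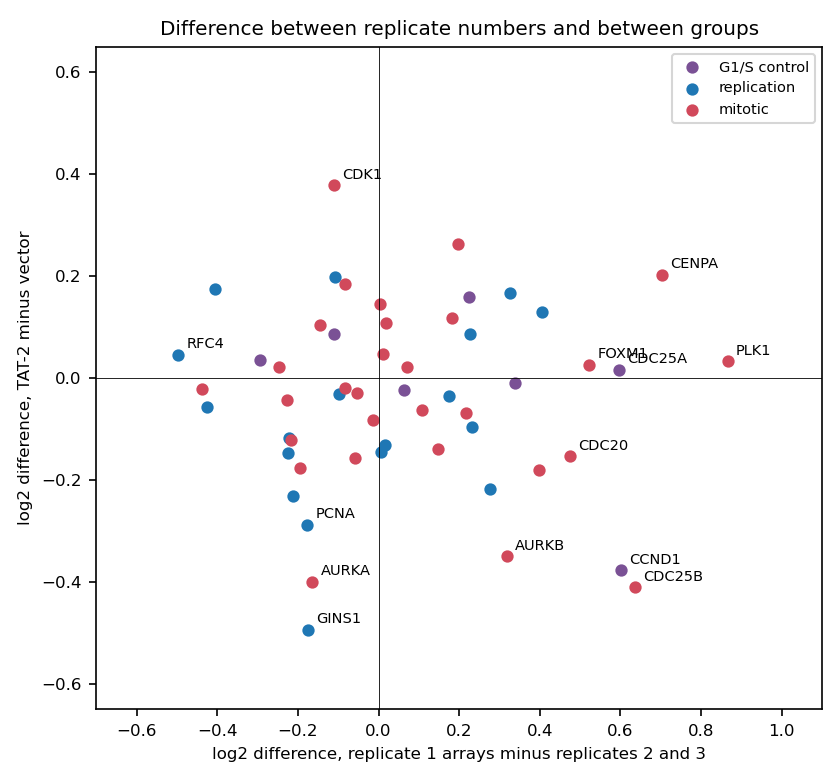
The x axis is the log2 difference between the replicate 1 arrays and those of replicates 2 and 3, and the y axis the log2 difference between the groups, TAT-2 minus vector, for the 54 members in 3 colours by function. PLK1 is farthest right at 0.87 with a group difference of 0.03, and the 6 members that fell lie on both sides of the vertical line.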

How the data were processed

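RNA of 6 HSC-3 samples was read on Affymetrix arrays from 2 µg of total RNA each, with groups and replicate numbers taken from the sample titles. The authors deposited intensities, a linear signal for each probe set, from MAS5 (version not stated), per the submitters' processing notes. Their scaling was kept, since the mean between percentiles 2 and 98 was 99.99 on all 6 arrays. Precision is limited by having 3 arrays per group.

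Of 54675 probe sets, 41097 had 1 gene symbol in the platform annotation, 1801 several and 11777 none; 41043 of the first were matched by gene identifier to RefSeq's table of assembly GRCh38.p14, and 54 kept their name. That table also gave the order of genes. Signals were taken as log2(signal + 16), which understates changes of dim probe sets, and the 27307 probe sets at or above the median of all non-control ones (a signal of 15.2) were tested. The test was limma 3.58.1 in R 4.3.3 (lmFit, eBayes with an intensity trend), group as the only term, with Benjamini-Hochberg adjustment over all tested probe sets at 0.05. A gene was read on its probe set of highest mean log2 signal. The fitting code was tested on simulated data.

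Arrays sharing a replicate number deviated together (r = 0.64, 0.39 and 0.25), so the number was used as a block in a further fit. TAT-2 replicate 2 with vector replicate 3 gave 0.32 too, and TAT-2 replicate 3 with vector replicate 2 gave 0.20. Replicates 2 and 3 were thus little separated from each other by this measure. The labels leave the meaning of a number unstated. The alternatives were other pseudocounts, filters, scalings, probe set rules, the block, a batch factor and arrays left out. Members, lists and tests were chosen with earlier results of these data known. The rule for named genes took every called member, the brightest member and the member of largest difference of each functional group, and up to 6 called genes of each further list; other members are given as ranges or chosen after their values were seen.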

Additional observations from a re-analysis of the deposited data

How the results depend on the processing

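The number of genes that limma called, 7 with group alone, was 11 with quantile normalization, 20 with array medians centred, 4 without the intensity trend, 29 with a gene's probe sets averaged, 31 without probe sets ending in _x_at or _s_at, 196 within replicates 2 and 3, 747 with replicate 1 as a batch factor, 846 with the replicate block and 0 with the block and no trend. It ran from 0 to 22 when 1 array was left out. The number of members called was 0 with group alone, 7 with the replicate block, 7 with the batch factor, 2 within replicates 2 and 3, and 0 under the other settings run, including each array left out.

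With the block, the 7 called members became 3 with no filter, 3 with array medians centred, 0 without the trend and 2 to 9 with 1 replicate number left out, the lowest without replicate 2. Off chromosomes 10 and 20 the 2 called members became 0 with no filter, with medians centred and without the trend, 4 with the filter at percentile 70, 5 with quantile normalization and 0 to 3 with 1 replicate number left out. These blocked settings were chosen after seeing the data. Without the trend the block called 0 genes in all. For the other settings the count over all genes is not given. A change in the number of members called may therefore follow a change in calls over all genes, and is not a result about the members.

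The median of the mitotic members, -0.021, was -0.027 with quantile normalization, -0.013 with medians centred, -0.011 with probe sets averaged and -0.050 within replicates 2 and 3. With 1 array left out it ran from -0.066 to -0.024, that of the replication members from -0.125 to -0.061, and that of the G1/S control members from -0.047 to 0.061, so the last has no settled sign. Uncalled members near 0 turned sign. With probe sets averaged these were CDC25A (-0.030), CDC6 (0.016) and TOP2A (-0.011), and within replicates 2 and 3 TOP2A (-0.065) and MAD2L1 (-0.096). Each gene kept its probe set of the 6-array fit wherever that one was tested; with the brightest chosen again within replicates 2 and 3, an alternative added after seeing the data, CDC25A was read on another probe set and turned too (-0.31). With 1 array left out they ran from -0.165 to 0.23 for CDC25A, -0.046 to 0.056 for TOP2A, -0.028 to 0.105 for MAD2L1, -0.035 to 0.43 for CENPA, -0.116 to 0.012 for CDC6, -0.050 to 0.175 for E2F1 and -0.31 to 0.0027 for CDC20. Of the called members only PCNA changed sign in any setting run, to 0.045 once the median of its 20 neighbours was subtracted, a setting added after seeing the data. The cause was not tested for these changes.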
